A study of Arabidopsis thaliana with 24 samples.

Results

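In these Arabidopsis plants the transcripts of 92 loci had a higher mean reactivity to dimethyl sulfate (DMS) with salt than without it, in the shoot and in the root alike. DMS is a small chemical that enters living tissue and methylates bases of RNA that are not paired, so a high mean reactivity of a transcript is read as many exposed bases. Members were chosen by measured values: the log2 ratio of mean reactivity, salt over control, had to be at least 0.2 in the shoot and at least 0.2 in the root. Of each locus the lowest-numbered isoform in the table was used, its mean reactivity had to reach 0.1 in all 4 conditions, and its Gini index could not pass 0.9 in any of them. The Gini index runs from 0, reactivity spread evenly along a transcript, to 1, all reactivity on a single base. The table held 12978 transcripts of 8956 loci. The minimum and the Gini limit kept 8830 loci, and 92 of these passed both limits, or 1.04% of the loci that passed. Those 92 loci carry 90 distinct sets of values, because bZIP2 (AT2G18160) shares its values with AT2G18162, and AT2G37480 with AT2G37478.

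All plants were wild-type Arabidopsis thaliana of the Col-0 accession, 24 days old and grown in hydroponic solution, and salt-treated plants had received 100 mM NaCl for 48 h. Shoots and roots were cut apart and placed in 0.75% DMS for 5 min, or in the same buffer with no DMS, which gives the background of natural stops of reverse transcriptase. Each of the 4 conditions (control shoot, salt shoot, control root, salt root) had 3 biological replicates with DMS and 3 without, and each of the 24 libraries was made from about 40 plants. The deposited table gives 1 value per condition, combined over replicates by the authors. No spread between replicates, no read depth and no test could therefore be had, and every difference given here is a description by size. Each library holds the RNA of a whole organ, and a change in the kinds of cells that carry a transcript cannot be told apart from a change within each cell.

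Transcripts fold in the cell, and their folds loosen or tighten with ions, temperature, bound proteins and passing ribosomes, all of which a probe such as DMS reads together. Several of the members belong to the low-energy response of plants. When light or sugar runs short, the kinase SnRK1 switches cells from growth to the use of reserves, and genes for amino acid breakdown, for raffinose-family sugars and for dormancy-associated proteins are switched on. Salt stress also changes cell walls, and it acts through the hormone abscisic acid (ABA) and through calcium-dependent kinases. Some cell wall genes are among the members as well. Of the genes that passed, 1 of 5 ABA receptors and 2 of 13 CIPK kinases, which work with calcium sensors, were members. No gene was a member among 13 listed for salt, dehydration and ABA response.

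The limits lie at different places in the distributions of the organs. In the shoot, 260 loci (2.94%) reached a log2 ratio of 0.2, and the median over all loci that passed was -0.03. In the root, 1272 loci (14.4%) reached it, and the median over all loci was 0.09. The members made up 35.4% of the loci that reached the limit in the shoot and 7.23% of those that reached it in the root. Another 168 loci reached it in the shoot only and 1180 in the root only, while 51 loci were lower by the same limit in both organs. Taken from the root median, the lowest root ratio of a member was 0.11.

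Among the members the shoot ratio ran from 0.20 to 1.08 with a median of 0.29, and the root ratio from 0.20 to 0.63 with a median of 0.29. Most members lay close to the limits: the smaller of the 2 ratios was under 0.25 in 43 members, at least 0.3 in 20 and at least 0.4 in 7. In the shoot, 6 members were at least 1.5-fold higher with salt (SEN1, AT1G15125, AT5G62360, AT1G27020, ERD5 and DIN10), and no other locus that passed was (0.068%). In the root 4 members were (HOL1, AT3G52520, AT5G62360 and ACR9), of the 6 loci that passed and were (0.068%). AT5G62360 was the single member past 1.5-fold in both organs. These counts use the values that chose the members and say nothing further about them.

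**Figure D1:**
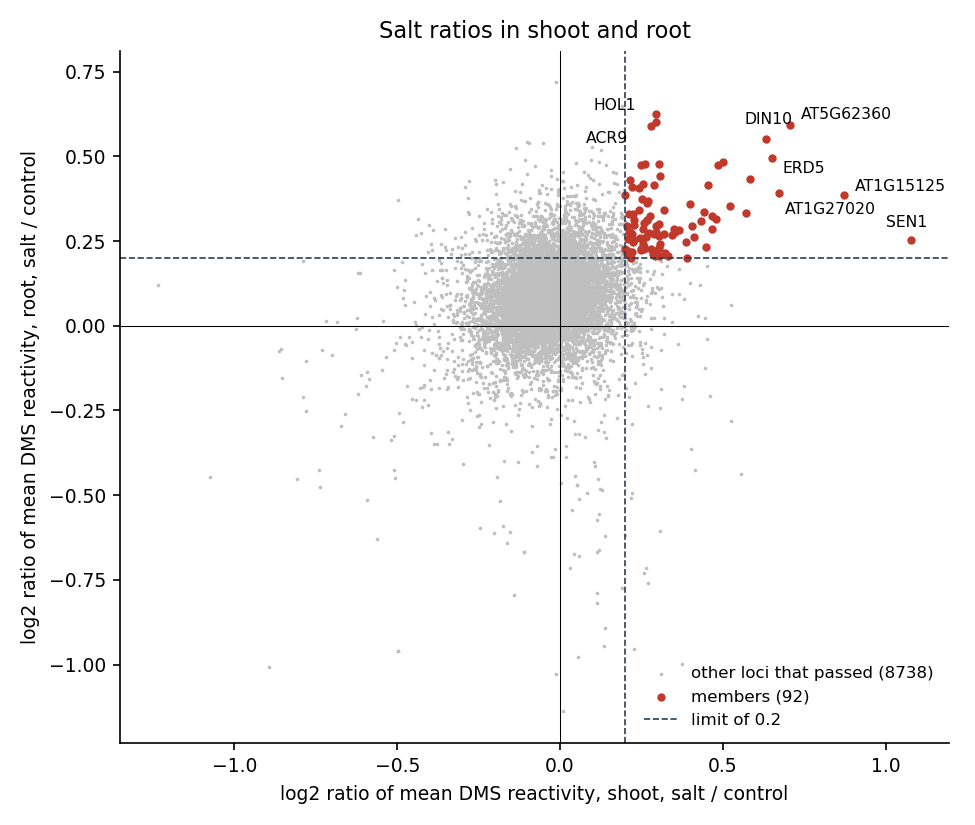
Log2 ratio of mean DMS reactivity, salt over control, in the shoot (x axis) and in the root (y axis). Red points are the 92 members, grey points the other loci that passed, and dashed lines the limit of 0.2. Most members crowd near the corner of the limits, SEN1 lies far to the right at 1.08 in the shoot, and HOL1 lies highest in the root at 0.63.

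The highest member by its smaller ratio was AT5G62360, for which the reference gives no gene name. Its mean reactivity was 0.294 in control shoots, 0.480 in salt shoots, 0.351 in control roots and 0.529 in salt roots. Salt thus stood 1.63-fold above control in the shoot and 1.51-fold above it in the root. Both salt values lay above both control values, so the organs overlapped while the treatments did not. Its most reactive base went from 1.65 to 4.07 in the shoot and from 2.06 to 5.28 in the root.

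Members assigned here to the dark and sugar starvation response formed a group of 4, with median log2 ratios of 0.49 in the shoot and 0.35 in the root. BCE2, also called DIN3, was placed with amino acid breakdown instead. By the smaller ratio DIN10 was the second of the 92 members, while AKINBETA1, DYL1 and SEN1 stood at places 32, 47 and 48. DIN10 (AT5G20250), a dark-inducible gene named as a raffinose synthase, had a mean reactivity of 0.406 in control shoots, 0.629 in salt shoots, 0.248 in control roots and 0.364 in salt roots. Its control-shoot value was the highest of all members, and its log2 ratios were 0.63 in the shoot and 0.55 in the root. SEN1 (AT4G35770), induced by darkness and in senescing leaves, had 0.260 in control shoots, 0.549 in salt shoots, 0.274 in control roots and 0.327 in salt roots. Among all loci that passed, SEN1 had the largest shoot ratio, 2.11-fold, while its root ratio was only 1.19-fold. The difference between its organs, -0.82 in log2 as root minus shoot, was the largest of any member. DYL1 (AT1G28330, also called DRM1), a dormancy-associated protein, went from 0.351 to 0.420 in the shoot and from 0.206 to 0.276 in the root, with the larger ratio in the root (0.42 against 0.26). AKINBETA1 (AT5G21170), a regulatory beta subunit of SnRK1 itself, went from 0.321 to 0.410 in the shoot and from 0.222 to 0.269 in the root.

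Genes of amino acid breakdown formed a group of 5, with median log2 ratios of 0.28 in the shoot and 0.32 in the root. ERD5 (AT3G30775), the mitochondrial proline dehydrogenase that begins proline breakdown, stood highest among them. Its mean reactivity was 0.304 in control shoots, 0.477 in salt shoots, 0.198 in control roots and 0.279 in salt roots, giving log2 ratios of 0.65 and 0.49. The other 4 were nearer the limits and nearer each other. GDH1 (AT5G18170), a glutamate dehydrogenase, went from 0.312 to 0.378 in the shoot and from 0.206 to 0.258 in the root. BCE2 (AT3G06850, the dark-inducible DIN3), the acyltransferase subunit of the complex that breaks down branched-chain amino acids, went from 0.256 to 0.308 and from 0.142 to 0.183. MCCA (AT1G03090), a subunit of the methylcrotonyl-CoA carboxylase of leucine breakdown, went from 0.287 to 0.355 and from 0.203 to 0.244. ALDH6B2 (AT2G14170), the methylmalonate-semialdehyde dehydrogenase of valine breakdown, had the same log2 ratio of 0.27 in both organs. In all 5 the salt-root value lay under the control-shoot value, so that the organs did not overlap. The same was true of 70.7% of the members and 91.5% of all loci that passed, shares that are not independent of the rule.

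Cell wall genes with a name in the reference numbered 6, with median log2 ratios of 0.40 in the shoot and 0.28 in the root. XTH9 (AT4G03210), an enzyme that cuts and rejoins xyloglucan, had 0.368 in control shoots, 0.512 in salt shoots, 0.384 in control roots and 0.478 in salt roots. BGAL1 (AT3G13750), a beta-galactosidase, was close to it with 0.365, 0.477, 0.373 and 0.443 in the same order. In both genes root and shoot were nearly level without salt. FLA13 (AT5G44130), a fasciclin-like arabinogalactan protein of the cell surface, went from 0.309 to 0.409 in the shoot and from 0.396 to 0.486 in the root. Its relative FLA9 (AT1G03870) had lower root values, 0.231 without and 0.277 with salt, beside 0.325 and 0.432 in the shoot. MIOX2 (AT2G19800), a myo-inositol oxygenase that feeds sugar acids into wall synthesis, showed the opposite balance of organs to FLA13. It went from 0.303 to 0.376 in the shoot and from 0.113 to 0.154 in the root, the widest gap of any member between control organs on the log2 scale. RALFL22 (AT3G05490), a secreted signalling peptide of the RALF family that acts at the wall, had log2 ratios of 0.29 and 0.21.

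Transcription and chromatin genes numbered 9, with medians of 0.32 in the shoot and 0.27 in the root. HAT1 (AT4G17460), a homeodomain-leucine zipper factor, had 0.266 in control shoots, 0.351 in salt shoots, 0.158 in control roots and 0.203 in salt roots. WRI4 (AT1G79700), an AP2-type factor that acts in the making of cuticular wax, had 0.271, 0.369, 0.255 and 0.322 in the same order. These were the only genes of the group among the 25 members with the highest smaller ratio. RAV1 (AT1G13260), an AP2 and B3 domain factor, went from 0.302 to 0.383 and from 0.187 to 0.225. The bZIP factors GBF1 (AT4G36730), which binds G-box sequences, and bZIP2 had root ratios of 0.27 and 0.31. The basic helix-loop-helix factor AKS2 (AT1G05805), the BTB and TAZ domain protein BT5 (AT4G37610), the histone HTA2 (AT4G27230) and the high-mobility-group protein HMGB6 (AT5G23420) completed the group, with shoot ratios from 0.21 to 0.33.

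Signalling genes also numbered 9, with medians of 0.28 in the shoot and 0.24 in the root. AT5G22920, a RING zinc-finger protein named RZPF34, stood highest with 0.311 in control shoots, 0.440 in salt shoots, 0.213 in control roots and 0.297 in salt roots. ACR9 (AT2G39570), a protein with ACT domains, which bind small molecules such as amino acids in other proteins, went from 0.316 to 0.384 in the shoot and from 0.190 to 0.286 in the root. Its log2 ratio was 0.28 in the shoot and 0.59 in the root, among the largest differences in favour of the root. PYL4 (AT2G38310), an ABA receptor, leaned the same way, from 0.307 to 0.369 in the shoot and from 0.174 to 0.242 in the root. STY46 (AT4G38470), a protein kinase that acts on chloroplast precursor proteins, went from 0.336 to 0.453 and from 0.175 to 0.217. The kinases CIPK15 (AT5G01810) and CIPK21 (AT5G57630), which work with calcium sensors of the CBL family, had shoot ratios of 0.26 and 0.32 and root ratios of 0.23 and 0.22. RKL1 (AT1G48480), a receptor-like kinase, LSD1 (AT4G20380), a zinc-finger protein that restrains cell death, and ACR4 (AT1G69040), named as an ACT domain protein, had root ratios from 0.20 to 0.24.

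The remaining 16 members with a role were of varied metabolism and cell function, with medians of 0.25 in the shoot and 0.28 in the root. HOL1 (AT2G43910), a methyltransferase that makes methyl halides, had 0.340 in control shoots, 0.417 in salt shoots, 0.251 in control roots and 0.387 in salt roots, and its root ratio of 0.63 was the highest of all members. MAM1 (AT5G23010), which lengthens the methionine chain in glucosinolate synthesis, leaned to the root too, from 0.371 to 0.430 in the shoot and from 0.345 to 0.465 in the root. PBP1 (AT3G16420), named for binding the root beta-glucosidase PYK10, was near both limits and had very low root values, 0.108 and 0.125, beside 0.283 and 0.326 in the shoot. The root values of these 3 genes thus spanned a wide range, from among the lowest of the members to among the highest. RPL9 (AT3G44890), a ribosomal protein, had 0.368 in control shoots, 0.427 in salt shoots, 0.526 in control roots and 0.631 in salt roots, and its control-root value exceeded its salt-shoot value. The cytochrome P450 genes CYP706A2 (AT4G22710) and CYP706A1 (AT4G22690) went from 0.342 to 0.427 and from 0.321 to 0.414 in the shoot, and from 0.316 to 0.40 and from 0.303 to 0.369 in the root.

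The others of this group lay between 0.20 and 0.35 in the shoot and between 0.22 and 0.37 in the root. They were the acyl-CoA-binding protein ACBP3 (AT4G24230), the lipid-associated protein PLAT2 (AT2G22170), the membrane fusion protein SNAP33 (AT5G61210) and the polyamine synthase ACL5 (AT5G19530). The thioredoxin ACHT5 (AT5G61440), the molybdenum cofactor enzyme CNX7 (AT4G10100), the small modifier SUMO2 (AT5G55160), the cell shape gene LNG2 (AT3G02170) and the DNAJ proteins DJC66 (AT3G13310) and J8 (AT1G80920) completed it.

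For 43 members no role is given here, in most cases because the reference lists the locus code alone. Their medians were 0.27 in the shoot and 0.31 in the root, beside 0.29 and 0.29 over all members. Several stood near the top. AT1G15125 had 0.330 in control shoots, 0.605 in salt shoots, 0.410 in control roots and 0.536 in salt roots, the second largest shoot ratio of all loci. AT1G27020 went from 0.312 to 0.497 in the shoot and from 0.230 to 0.302 in the root. AT2G20670, AT2G30600 and AT5G19120 also had the larger ratio in the shoot, 0.58, 0.57 and 0.52 against 0.43, 0.33 and 0.35 in the root. AT3G15450 and AT3G15630 were nearly balanced. AT3G15450 went from 0.354 to 0.495 and from 0.168 to 0.233, and AT3G15630 from 0.340 to 0.466 and from 0.183 to 0.244. AT3G52520 leaned to the root, from 0.277 to 0.340 in the shoot and from 0.213 to 0.323 in the root. AT5G14120 and AT3G62930 did so with smaller root ratios of 0.48 and 0.42. AT2G30930 and MEE14 (AT2G15890, named for a maternal effect on embryo arrest) leaned to the shoot at 0.47 and 0.47, and AT2G36410 was level at 0.30 and 0.30.

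**Figure D2:**
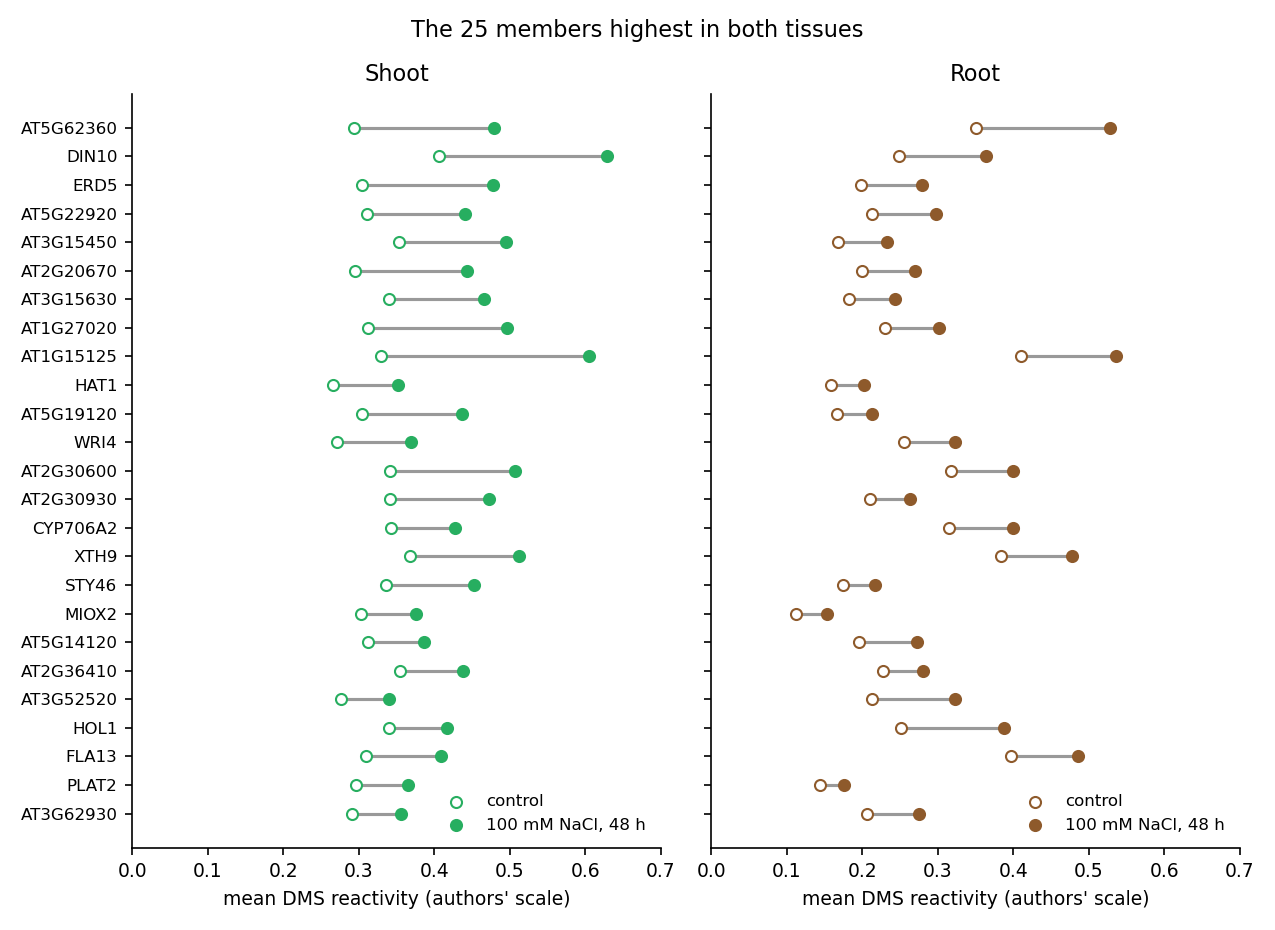
Mean DMS reactivity on the authors' scale (x axis) of the 25 members with the highest smaller ratio, in the shoot (left) and in the root (right). Open circles are control, filled circles 100 mM NaCl for 48 h, each a single value combined over replicates by the authors. Every line runs rightwards from control to salt, and for most genes the whole root line lies left of the shoot line, with AT5G62360, AT1G15125, XTH9 and FLA13 among the exceptions.

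Which organ had the larger ratio varied from gene to gene. The shoot ratio was the larger in 51 members and the root ratio in 41, and the median difference, root minus shoot, was -0.008 in the members against 0.12 over all loci that passed. In 11 members the difference was over 0.2. SEN1, AT1G15125, AT1G27020, AT2G30600 and AT1G12080 had the larger ratio in the shoot. HOL1, ACR9, AT3G52520, AT1G22885, MAM1 and PYL4 had it in the root. Since the limits were set equally in both organs, the balance of the members around 0 partly follows from the choice.

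Root values were lower than shoot values without salt, for members as for most loci. The mean reactivity of the members had a median of 0.308 in control shoots, 0.379 in salt shoots, 0.213 in control roots and 0.273 in salt roots. Over all loci that passed the medians were 0.274, 0.267, 0.199 and 0.211 in the same order. The log2 ratio of control root over control shoot had a median of -0.52 in the members and -0.45 over all loci, -0.21 in the loci past the limit in the shoot only and -0.58 in those past it in the root only. A lower value in the control root was found for 82 of the 92 members (89.1%) and for 92.6% of all loci that passed, so the members' share was near the background. The control values entered the rule as denominators, so this comparison is not independent of the choice of members.

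The 10 members that were not lower in the control root were AT5G47190 at 0.52, RPL9 at 0.51, FLA13 at 0.36, AT1G15125 at 0.31, AT5G62360 at 0.26, AT3G59350 at 0.16, AT5G24490 at 0.09, SEN1 at 0.08, XTH9 at 0.06 and BGAL1 at 0.03, each as a log2 ratio of root over shoot. Cell wall genes contributed 3 of these from a group of 6. At the other end stood MIOX2 at -1.42, PBP1 at -1.39 and AT3G15450 at -1.08. With salt the median root over shoot ratio of the members was -0.52, and over all loci it was -0.32. It was -0.43 in the loci past the limit in the shoot only and -0.32 in those past it in the root only. The salt values entered the rule as numerators, so this comparison is not independent of the choice of members. The salt-root value lay under the control-shoot value in 65 members (70.7%) and in 91.5% of all loci that passed. Both of these values entered the rule, so the difference in share partly follows from the choice. AT5G47190 and RPL9 alone had a control-root value above their salt-shoot value.

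**Figure D3:**
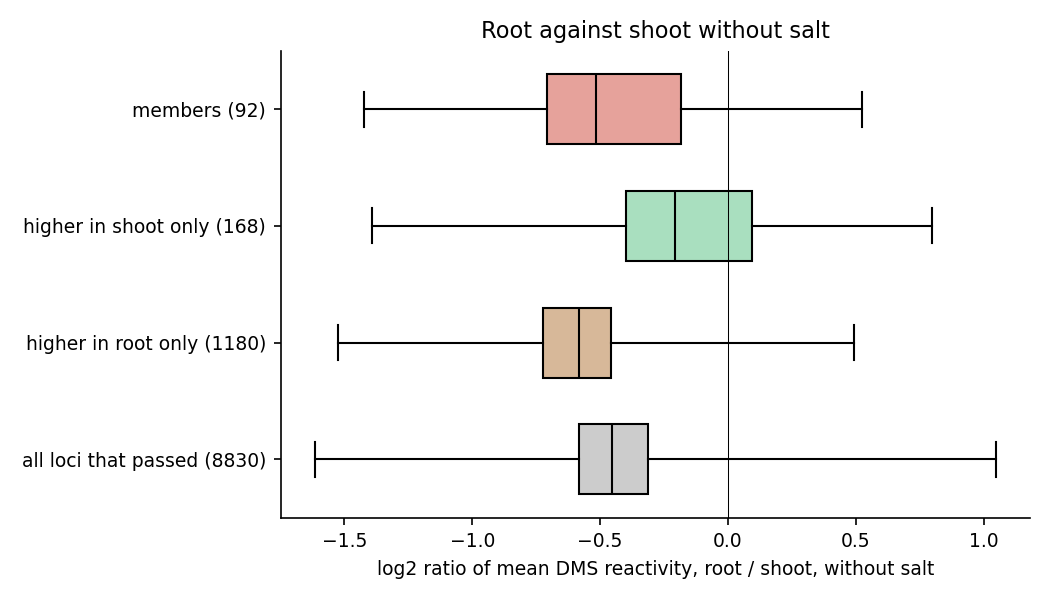
Log2 ratio of mean DMS reactivity, root over shoot without salt, for 4 sets of loci. Boxes span the quartiles, the inner line is the median and whiskers reach the lowest and highest locus. The members have a median of -0.52, close to -0.45 over all loci that passed, and the loci past the limit in the shoot only lie nearest to 0 at -0.21.

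With salt, reactivity was also less evenly spread along most members, more so in the shoot. The median Gini index of the members was 0.623 in control shoots and 0.692 in salt shoots, and 0.636 in control roots and 0.654 in salt roots. Without salt the members were more even than the loci that passed as a whole, whose medians were 0.677 in control shoots and 0.678 in control roots. This was not particular to them: the loci past the limit in the shoot only had 0.629 in control shoots. Those past it in the root only had 0.657 in control roots. The Gini index was higher with salt in 89 of 92 members in the shoot, with a median difference of 0.058 against 0.013 over all loci. The loci past the limit in the shoot only were similar, with a higher index in 159 of 168 and a median difference of 0.042. In the root it was higher in 71 members, with a median difference of 0.019 against 0.008. Over all loci that passed, the index was lower with salt in 26.2% in the shoot and 33.9% in the root. AT5G16470 was the one member whose index was lower with salt in both organs.

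The largest shoot differences of the Gini index were found in AT2G30600 (0.562 to 0.711), AT2G20670 (0.639 to 0.786), AT1G15125 (0.586 to 0.731) and BT5 (0.641 to 0.777). AT5G62360 was high in both organs, with 0.649 and 0.751 in the shoot and 0.685 and 0.789 in the root. DIN10 remained comparatively even, with 0.489 and 0.590 in the shoot and 0.545 and 0.566 in the root. SEN1 moved in opposite directions, from 0.680 to 0.733 in the shoot and from 0.741 to 0.703 in the root, and MIOX2 did the same.

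The most reactive base of a member had a median reactivity of 1.67 in control shoots and 2.45 in salt shoots, while over all loci that passed it was 1.75 and 1.78. In roots it was 1.19 without and 1.65 with salt in the members, and 1.28 and 1.39 over all loci. It was higher with salt in 90 of 92 members in each organ. Over all loci that passed it was higher in 52.9% in the shoot and 70.6% in the root. The standard deviation between bases was higher in all 92 members in both organs. Over all loci it was higher in 52.4% in the shoot and 83.2% in the root. Its median log2 ratios were 0.51 in the shoot and 0.36 in the root against 0.008 and 0.12 over all loci. In the loci past the limit in the root only, the standard deviation was higher in the root in 99.9% and the most reactive base in 88.7%. In the loci past the limit in the shoot only, the median shoot log2 ratio was 0.40 for the standard deviation and 0.39 for the most reactive base. ERD5 reached 3.57 with salt in the shoot from 1.72, and AT2G20670 reached 4.26 from 1.33. No member reached 7, the highest value in the table. The standard deviation, the highest base and the Gini index come from the same reactivities as the mean that chose the members, so they describe the shape of the difference and are no further evidence of it.

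Gini indices were also set side by side at a like mean reactivity. In salt shoots with a mean from 0.350 to 0.433, the middle range of the members, 46 members had a median Gini index of 0.678, and 738 other loci had 0.578. Of those other loci, 65 were past the limit in the shoot only, and their median was 0.641, between the other medians. In control shoots 624 loci of that mean had 0.532. In salt roots with a mean from 0.221 to 0.324, 46 members had 0.652 and 3062 other loci 0.646, and in control roots 2256 loci had 0.638. In salt roots of that mean, 520 loci past the limit in the root only had 0.626, lower than both. A less even spread at a like salt mean was seen in the shoot both in the members and in the loci past the limit in the shoot only. Both sets were chosen by the salt over control ratio, so a like salt mean does not make their control means alike. The comparison is therefore not independent of the choice.

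**Figure D4:**
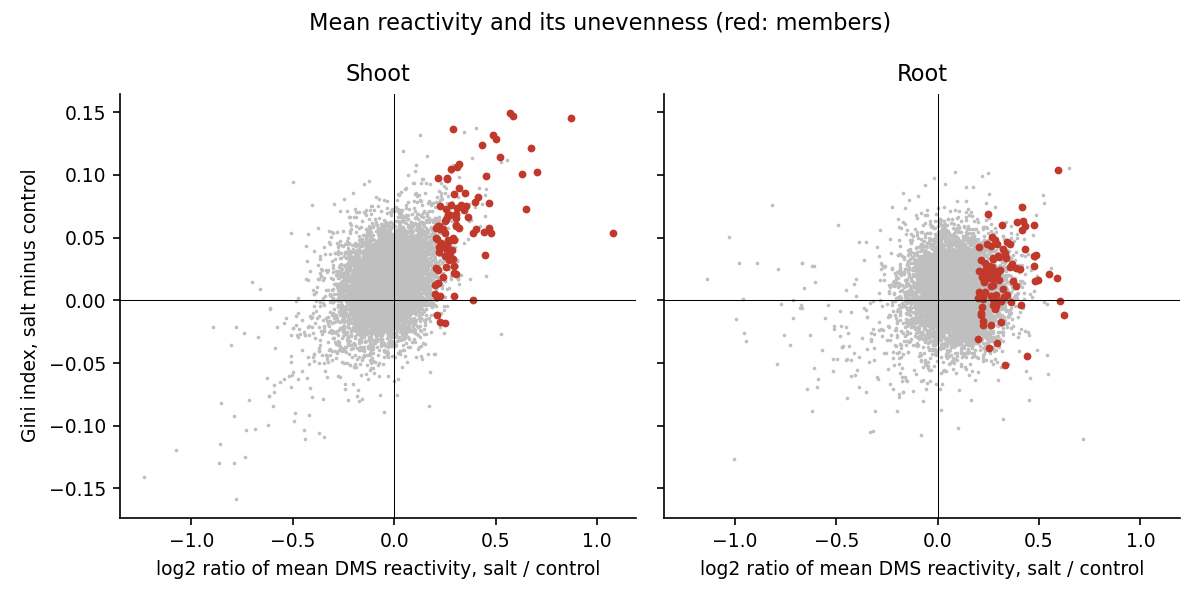
Log2 ratio of mean DMS reactivity, salt over control (x axis), and the Gini index with salt minus that without (y axis), in the shoot (left) and in the root (right). Red points are the 92 members and grey points the other loci that passed. In the shoot 89 members lie above 0 on the y axis, in the root 71 do, and the root differences are smaller.

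Other isoforms of the same loci gave similar ratios. Of the members, 55 had a single isoform in the table (59.8%, against 68.1% of all loci that passed) and 37 had more. Those 37 had 65 other isoforms, all with both ratios above 0, and 55 of them also passed both limits (84.6%, 95% Wilson interval 73.9% to 91.4%, which covers counting error only). Among 3995 other isoforms of all loci, 59 passed (1.48%), but these include the 55 of the members and are no separate background. Isoforms of a locus share most of their reads, and their ratios are not separate measurements, although the interval counts each isoform singly. In 29 members every other isoform passed and in 6 none did. The 4 isoforms of DIN10 had shoot ratios from 0.63 to 0.65 and root ratios from 0.55 to 0.58. DYL1 was less uniform: isoforms 3 and 5 had shoot ratios of 0.11 and 0.15, and isoform 4 missed the root limit at 0.1995.

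Gene length was compared as well. The gene length in the TAIR10.1 reference, introns included, had a median of 2082 bases over the 90 members in the reference and 2495 bases over 8768 loci. It was shorter still in the loci past the limit in the shoot only (1918.5 bases), in the root only (1984.5 bases) and lower in both organs (1518 bases), so a shorter length was not particular to the members. A pair of members, AT1G53430 and AT1G53440, are direct neighbours in the reference, and CYP706A2 and CYP706A1 lie with 1 gene between them. Reads shared between such related neighbours cannot be told apart from parallel values here.

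Lists of genes (6 in all) were set beside the members, drawn up with earlier results of these data known. The list of dark and sugar starvation genes had 24 entries, of which 17 were in the table and passed. Of these, 8 were members (47.1%, against 1.04% of all loci that passed): SEN1, DIN10, BCE2, ERD5, DYL1, GDH1, AKINBETA1 and MCCA. The list's median log2 ratio was 0.17 in the shoot and 0.26 in the root, beside -0.03 and 0.09 over all loci. In the root 12 of the 17 reached the limit (70.6%, against 14.4% of all loci). All 17 lay above 0 there, as did 80.2% of all loci that passed. In the shoot 8 reached the limit, all members (47.1%, against 2.94%), and 13 of 17 lay above 0, beside 37.5% of all loci. SEN1, ERD5 and DIN10 were known to be high when the list was made, and the count is therefore no independent evidence.

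The other 9 genes of that list missed the shoot limit. DRM2 (AT2G33830), a relative of DYL1, had 0.09 in the shoot and 0.49 in the root as log2 ratios, and the glutamate dehydrogenase GDH2 had 0.17 and 0.22. The trehalose-phosphate synthase-like genes TPS8 to TPS11 ran from -0.06 to 0.14 in the shoot and from 0.02 to 0.24 in the root. IVD, a dehydrogenase of leucine breakdown, and ETFQO, which passes electrons from it to respiration, had -0.01 and 0.09 in the shoot and 0.09 and 0.15 in the root. EXL4 stood apart with -0.28 in the shoot and 0.38 in the root.

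The cell wall list had 47 entries, 29 of which passed. Its 4 members were XTH9, FLA9, FLA13 and AT5G62360, which the list carries by locus code. They were 13.8% of those that passed, against 1.04% of all loci. List medians were 0.05 in the shoot and 0.15 in the root. At or above the limits were 6 genes in the shoot (20.7%, against 2.94% of all loci) and 8 in the root (27.6%, against 14.4%). XTH24 and FLA2 reached it in the shoot at 0.31 and 0.24 but not in the root, where they had 0.15 and 0.199. AT1G23205, PME3 and FLA8 reached it in the root at 0.65, 0.33 and 0.28 but had 0.19, 0.01 and 0.13 in the shoot. The wall genes on the list therefore did not share a common pattern.

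No gene of the remaining 4 lists was a member. With members at 1.04% of all loci that passed, lists of 3 to 13 genes would be likely to hold none. The median log2 ratios of 12 aquaporins, the water channels of cell membranes, were -0.02 in the shoot and 0.20 in the root. Of the 12, 4 reached the root limit (33.3%, against 14.4% of all loci). Nitrogen assimilation genes had medians of -0.06 and 0.04 over 13 genes, and iron homeostasis genes -0.15 and 0.09 over 3. The 13 genes of salt, dehydration and ABA response had the lowest medians, -0.44 in the shoot and -0.07 in the root. ERD15 alone reached a limit, with 0.25 in the root (7.69% of the list, against 14.4% of all loci). The member ERD5 shares its name series with ERD4, ERD10, ERD14 and ERD15 of this list but was placed on the dark and sugar starvation list. The absence of members here depends on that placing.

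**Figure D5:**
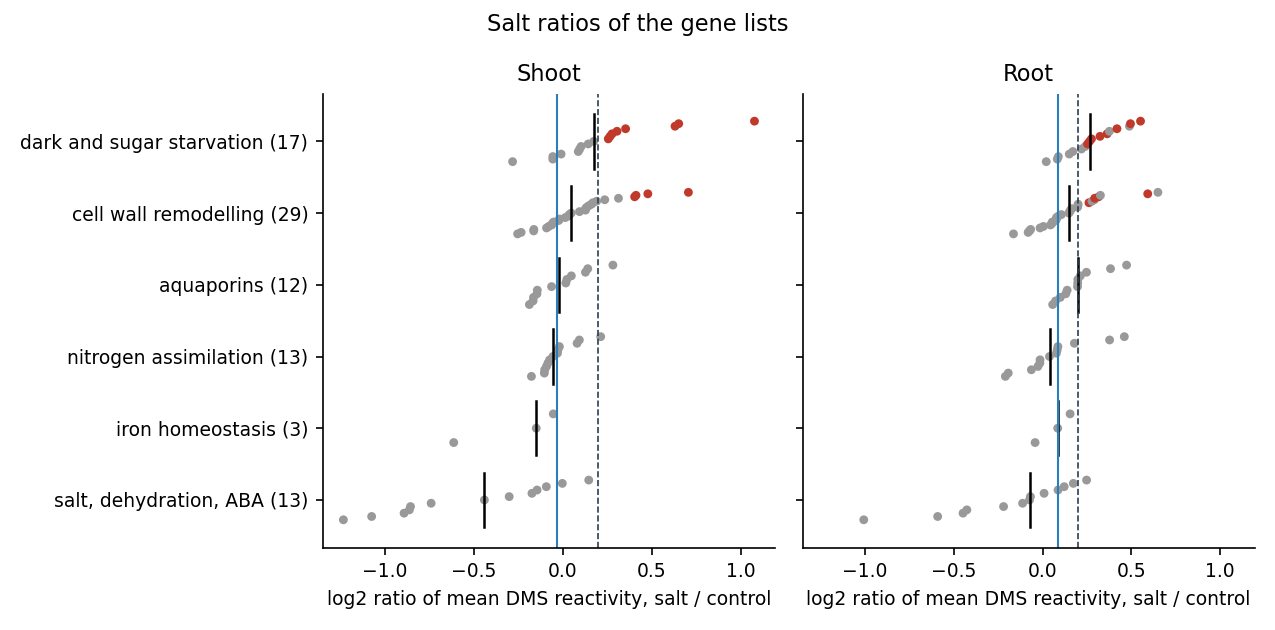
Log2 ratios of mean DMS reactivity, salt over control, of the genes on 6 lists in the shoot (left) and in the root (right), with the number of genes that passed after each name. Red points are members, grey points other genes, black bars list medians, the blue line the median over all loci that passed and the dashed line the limit of 0.2. The 8 red points of the dark and sugar starvation list stand beside 4 in the cell wall list and none in the others. Those others hold 3 to 13 genes each, few for a share of 1.04% over all loci.

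Close relatives of members mostly did not share their values. Of 13 CIPK kinases that passed, CIPK15 and CIPK21 were members, and the family median in the shoot was -0.14, down to -0.51 in CIPK11. Of the 5 ABA receptors, PYL4 was a member, PYR1 had 0.16 in the shoot and 0.32 in the root, and PYL9 had -0.39 and 0.22. Among 10 aldehyde dehydrogenases ALDH6B2 was the one member, while ALDH7B4 had -0.78 in the shoot and ALDH12A1, which acts in proline breakdown after ERD5, had -0.17 in the shoot and -0.40 in the root. BT2 had 0.29 and 0.16, close to BT5, while BT1 had -0.06 and 0.39. Of 4 RALF-like peptides RALFL22 was a member and RALFL31 had -0.48 and -0.28. The xyloglucan enzymes had family medians of 0.13 in the shoot and 0.09 in the root over 9 genes, beside 0.48 and 0.32 in XTH9. Of 6 beta-galactosidases BGAL1 was the one member, at 0.39 and 0.25 beside family medians of 0.02 and 0.07.

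Each of the 12 families compared held a member, and no family without one was looked at. In 5 there was a pair of members, the CIPK kinases among them, a count that therefore says nothing about clustering. CYP706A2 and CYP706A1 were members, whereas CYP706A4 lay at 0.01 in the shoot and 0.00 in the root. FLA9 and FLA13 were members out of 11 fasciclin-like proteins, which had medians of -0.002 and 0.12. ACR9 and ACR4 were members out of 7 ACT domain repeat proteins, with medians of 0.04 and 0.20, and DJC66 and J8 out of 9 DNAJ class C proteins, with -0.05 and 0.05.

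The limits cut through a continuous range. Just inside lay AT4G14342 with a smaller ratio of 0.20005, SUMO2 with 0.20022 and AT1G78150 with 0.20037. Just outside lay HTA11, a histone H2A variant, with 0.19963, PLDGAMMA1, a phospholipase D, with 0.19931, and FLA2 with 0.199. One locus, AT1G22690, passed both ratio limits at 0.21 and 0.94 but was left out by the minimum and the Gini limit, with a mean reactivity of 0.0526 and a Gini index of 0.985 in control roots.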

How the data were processed

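Structure-seq2 libraries were analysed from the authors' table of reactivity statistics. Per the file headers, the deposited mean, maximum and standard deviation are reactivity scores, whose scale the authors chose, and the deposited Gini index is a fraction. The authors combined the 3 replicates, with and without DMS, into 1 value per condition. Not given in the sources used here are the build, aligner and coverage filter, how reactivities were normalized and which bases entered them, and read depth is unknown. Members and lists were chosen with earlier results of these data known.

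From the table, log2 ratios were computed without a pseudocount, using Python 3.11.15, pandas 2.3.3, numpy 2.4.6 and scipy 1.17.1, and the calculation was tested on simulated data. With 1 value per condition, differences are given by size, with no p-value. Named are the 25 members highest by their smaller ratio, the 8 highest in each organ, members on the 6 lists or in a family with other members, and 3 loci on each side of the limit. Roles and 12 families were added later by gene name. Symbols came from the TAIR10.1 reference, which held 90 of the 92 members, 47 of them under a symbol of their own. Gene lengths and the order of neighbouring genes were taken from the same reference; no coordinates or sequences are printed.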

Additional observations from a re-analysis of the deposited data

How the results depend on the processing

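Loci past both limits numbered 92, and 237 with a limit of 0.15, 20 with a limit of 0.3, 57 with a minimum mean reactivity of 0.2 and 30 with a pseudocount of 0.1. With the ratios centred on the median of all loci the count was 62, of which 46 were shared with the 92, so 46 members rest on the root median lying above 0. The count was 88 with the highest-numbered isoform (84 shared), 91 with a Gini index of at most 0.8, 92 with no Gini limit or a minimum of 0.05, and 90 with identical values counted once. Members on the dark and sugar starvation list numbered 8, and 2 with a limit of 0.3, 5 with centred ratios and 4 with the pseudocount. The median log2 ratio of control root over control shoot was -0.52 in the members, -0.63 with a limit of 0.3, -0.30 with a minimum of 0.2, -0.14 with centred ratios and -0.41 with the pseudocount. Beside these, the median over all loci was -0.34 with the minimum of 0.2 and -0.32 with the pseudocount. With centred ratios it was -0.14 in the members. There the root over shoot ratio was itself taken from its median over all loci, so -0.14 is a distance from that median. It cannot be set beside the other values. The cause of the other moves was not tested, and no value changed sign. The order against all loci did change. Members were lower in the main setting (-0.52 against -0.45) and higher with the minimum of 0.2 (-0.30 against -0.34). Taken singly, 37 members in the shoot and 46 in the root fell under 0.2 with the pseudocount, 6 and 3 with the highest-numbered isoform. The Gini index, the isoform share and the family and role groups were seen at a single value per condition, which limits all of them. Gene length, the separate count for the dark and sugar starvation list, the role groups and the families were added after seeing the data, and transcript length was not run. No paired analysis was possible because the deposited table holds 1 value per condition with the replicates combined.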
